A study of Mus musculus with 8 samples.

Results

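Frizzled proteins (Fzd) and their co-receptors LRP5 and LRP6 are the cell surface receptors of Wnt ligands. The mRNAs of 10 of these receptors, Fzd1 to Fzd8, Lrp5 and Lrp6, were examined for N6-methyladenosine (m6A), the methylated form of adenosine found inside mRNAs. They were taken by gene name from 4 lists of m6A peaks, and all 10 had at least 1 peak, out of 9779 genes with a peak in any list. The 10 were chosen with earlier results of these data known, so having a peak is not a finding about them. The remaining Frizzleds, Fzd9 and Fzd10, had no peak in any list. The 10 mRNAs held 78 of the 38705 peaks.

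The lists came from MeRIP-seq, in which fragments of mRNA that bind an m6A antibody are sequenced (the IP library) beside the unselected fragments (the input library). The cells were mouse embryonic fibroblasts (MEFs), primary cells from wild type C57BL/6 embryos at 13.5 days post-coitum, kept for 5 to 6 passages. Control cells were untreated, and starved cells spent 2 h in nutrient-deprived medium, so that the groups shared strain, genotype and passage and differed in the medium. Each group had 2 replicates, every replicate had its own IP and input library (8 samples in all), and no label names a batch. The study describes the replicates as biological, and whether they came from separate embryos is not given in the sources used here. The study asked which mRNAs change their m6A on nutrient deprivation. No file gives reads, so depth is unknown and the absence of a peak is not the absence of m6A. Each list held from 8974 to 10103 peaks.

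Wnt ligands bind the cysteine-rich outer domain of a Frizzled, a protein that crosses the membrane like a G protein-coupled receptor, and LRP5 or LRP6 as co-receptor. The bound complex recruits Dishevelled and Axin to the membrane, which spares β-catenin from degradation and lets it act with TCF/LEF factors in the nucleus. Frizzleds also signal without LRP5/6 in planar cell polarity. In fibroblasts and other mesenchymal cells the pathway is known for its part in growth and in bone and fat cell fate.

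The receptors differ in gene structure, which sets where a peak can lie on the genome. In the annotation used here the coding sequence (CDS) lies in 1 exon in Fzd1, Fzd2, Fzd5, Fzd7 and Fzd8, and in 2 exons in Fzd4. Fzd3 and Fzd6 have 7 exons, of which 6 are coding, and Lrp5 and Lrp6 have 23 coding exons each. The closest coding sequences were those of Fzd2 and Fzd7 (77.0% identity in a global alignment), Fzd1 and Fzd2 (71.7%), Lrp5 and Lrp6 (66.9%), Fzd5 and Fzd8 (65.2%) and Fzd3 and Fzd6 (58.8%).

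Sequences that the results turn on are shown first, in mRNA sense from the RefSeq assembly GRCm38.p6 (mm10). Exons 8 and 10 of Lrp5 and Lrp6, all on the minus strand, are given because peaks in these matching exons were called in different libraries, though several of those peaks had a high false discovery rate, as given with the results. Capitals mark GGAC, the most common context of m6A.
Lrp5 exon 8, chr19:3622510-3622726: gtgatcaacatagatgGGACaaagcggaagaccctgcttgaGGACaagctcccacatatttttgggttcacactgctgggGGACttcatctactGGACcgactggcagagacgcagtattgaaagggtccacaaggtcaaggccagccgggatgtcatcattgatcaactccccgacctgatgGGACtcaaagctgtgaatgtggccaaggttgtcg
Lrp6 exon 8, chr6:134486455-134486671: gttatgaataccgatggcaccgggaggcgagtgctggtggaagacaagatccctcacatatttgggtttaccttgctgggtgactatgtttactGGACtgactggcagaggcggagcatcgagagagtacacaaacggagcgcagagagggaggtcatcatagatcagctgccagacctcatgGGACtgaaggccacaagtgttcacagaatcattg
Lrp5 exon 10, chr19:3615653-3615879: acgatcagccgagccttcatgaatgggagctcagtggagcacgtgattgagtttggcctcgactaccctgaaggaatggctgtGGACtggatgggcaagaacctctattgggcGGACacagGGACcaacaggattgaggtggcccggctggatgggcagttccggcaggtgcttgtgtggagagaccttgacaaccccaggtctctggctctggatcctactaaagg
Lrp6 exon 10, chr6:134484214-134484440: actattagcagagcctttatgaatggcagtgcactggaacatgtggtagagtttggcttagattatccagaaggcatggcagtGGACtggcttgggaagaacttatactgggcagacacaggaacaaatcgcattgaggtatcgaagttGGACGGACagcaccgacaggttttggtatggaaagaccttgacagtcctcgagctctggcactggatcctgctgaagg

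Both exons are of equal length in the paralogs, 217 nt for exon 8 and 227 nt for exon 10. The exon 8 sequences were identical at 66.8% of positions, with 5 GGAC in Lrp5 and 2 in Lrp6, and both of the Lrp6 motifs stood at the position of a Lrp5 motif. Exon 10 was identical at 75.3% of positions and held 3 GGAC in each gene, 1 of them at the same position. Among internal coding exons of 200 to 250 bp in genes with a peak, 64.4% held GGAC.

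The coding part of Fzd3 exon 2, on the minus strand, is given because it carried the most enriched receptor peak of every library. Capitals mark the start codon.
Fzd3 exon 2, coding part, chr14:65252944-65253132: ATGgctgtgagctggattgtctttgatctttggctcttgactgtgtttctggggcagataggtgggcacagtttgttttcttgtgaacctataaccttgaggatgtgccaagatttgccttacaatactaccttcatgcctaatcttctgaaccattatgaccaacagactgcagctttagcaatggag

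The whole exon is 520 nt long and held 0 GGAC and 13 matches to the looser motif DRACH (D is A, G or T, R is A or G, and H is A, C or T).

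The last 120 coding bases of Fzd1 (minus strand), Fzd2 and Fzd7 (plus strand) are given because peaks lay over their stop codons, which are in capitals.
Fzd1, chr5:4755652-4755771: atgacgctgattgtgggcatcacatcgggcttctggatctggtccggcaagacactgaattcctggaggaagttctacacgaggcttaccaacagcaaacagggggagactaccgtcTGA
Fzd2, chr11:102606325-102606444: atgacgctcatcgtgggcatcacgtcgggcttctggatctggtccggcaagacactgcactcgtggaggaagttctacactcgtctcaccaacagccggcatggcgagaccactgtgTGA
Fzd7, chr1:59484559-59484678: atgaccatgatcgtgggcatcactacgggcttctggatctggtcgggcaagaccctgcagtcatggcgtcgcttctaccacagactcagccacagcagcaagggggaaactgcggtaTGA

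None of these 3 stretches held GGAC, whereas 46.6% of genes with a peak had it in their last 120 coding bases. Fzd1 and Fzd2 were identical at 85% of these positions, Fzd1 and Fzd7 at 75.8%, and Fzd2 and Fzd7 at 74.2%. The stretches are only a part of the peaks over them, and Fzd4 and Lrp5, not shown, also had a stop codon peak. In the 200 bp at the centre of the joined overlapping peaks, Fzd2 and Fzd4 held 1 GGAC each and Lrp5 held 2. Fzd1 and Fzd7 held 0 there.

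To ask how far the receptors carried m6A in each library, their peaks were counted. Control cells had 17 peaks in replicate 1 and 22 in replicate 2, and starved cells had 21 and 18. The means were 19.5 ± 3.54 and 19.5 ± 2.12 (SD, n = 2 each), a difference of 0. Frizzleds held 10 and 13 of the control and 11 and 10 of the starved peaks. LRP5/6 held 7 and 9 of the control and 10 and 8 of the starved peaks. A peak was present in 8 of the 10 receptors in every library except starved replicate 2, which had 9. Of all genes with a peak in any list, 65.3% and 63.1% had a peak in the control and 63% and 59.7% in the starved libraries.

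Fzd1, Fzd3, Fzd8, Lrp5 and Lrp6 had a peak in all 4 libraries, 5 of 10 receptors, against 29.2% of all genes with a peak. Among genes with a peak and a CDS of at least 1500 nt, as all 10 receptors have, the share was 50% with the CDS in 1 exon. With the CDS in 2 or more exons it was 38.0%. Fzd5, Fzd6 and Fzd7 had a peak in 3 libraries, so that 8 of 10 reached at least 3, against 49.9% of all genes with a peak. Fzd5 lacked a peak in starved replicate 1, Fzd6 in control replicate 2 and Fzd7 in control replicate 1. Fzd2 had peaks in replicate 2 of both groups and Fzd4 in replicate 1 of both groups. No receptor was therefore called in both libraries of 1 group and neither of the other, a pattern that 3.18% (starved) and 4.56% (control) of all genes with a peak showed.

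The strength of a peak is the deposited fold enrichment, a ratio of IP to local background in the same library's input. Receptor peaks ranged from 2.32-fold, in the Lrp6 3′UTR, to 617-fold, in Fzd3 exon 2. Their medians were 9.43 and 10.9 (control) and 16.9 and 13.1 (starved). All peaks together had medians of 12.2 and 12.3 (control) and 14.6 and 14.7 (starved). Both starved medians thus lay above both control medians, for the receptors and for all genes. For the receptors the group means were 10.2 ± 1.02 and 14.99 ± 2.66 (SD, n = 2 each). The deposited false discovery rate of the receptor peaks ran from 7.52% to 83.3%, and 40 of 78 peaks were under 20%, or 51.3%, against 55.0% of all peaks.

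**Figure D1:**
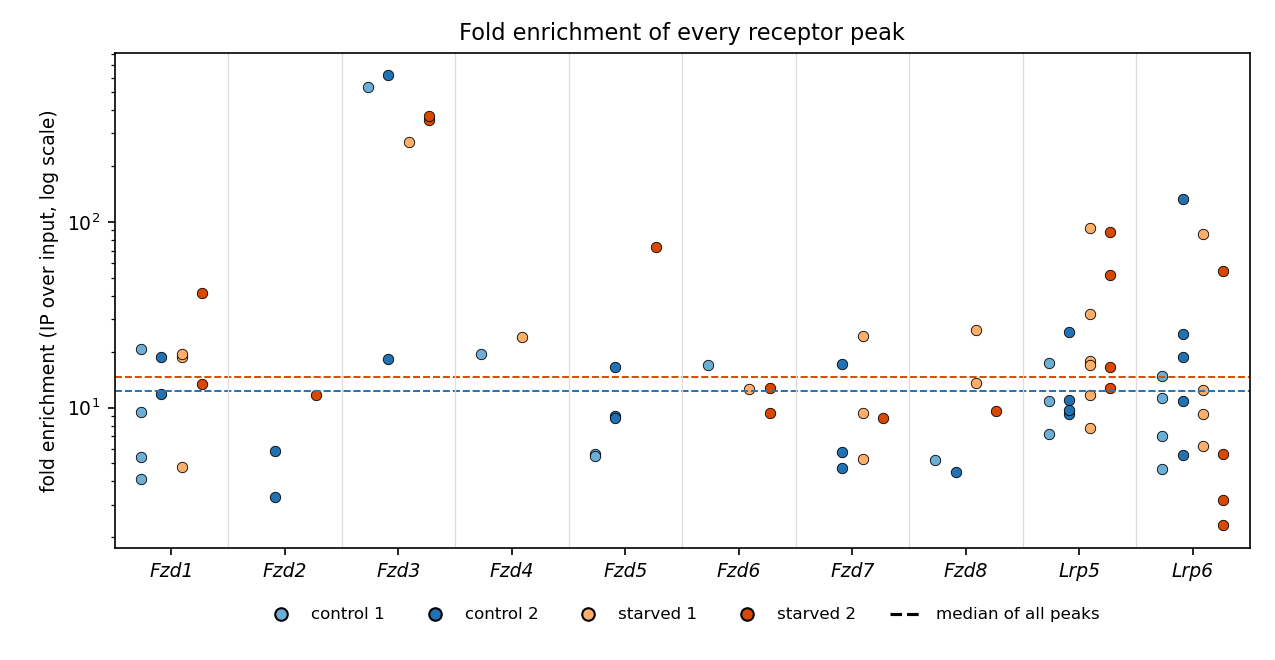
Fold enrichment (IP over input, log scale) of every receptor peak, 1 point per peak, coloured by library, with dashed lines at the median of all peaks of each library. The 4 peaks of Fzd3 exon 2, from 271 to 617, and a Fzd3 3′UTR peak of 355 stand above all other receptor peaks, and the lines of replicates lie nearly on each other.

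The peak score, -10 times log10 of the peak's p-value, stops at 3100 in these lists. This limit was reached by 17 of the 78 receptor peaks, 21.8%, against 21.4% of all peaks. In control libraries 1 of 17 and 2 of 22 receptor peaks reached it, and after starvation 8 of 21 and 6 of 18. The shares were 7.49% ± 2.27 for control and 35.7% ± 3.37 for starved cells (SD, n = 2 each). Over all genes the shares were 15.1% ± 2.66 and 28.2% ± 0.556. The groups did not overlap in either case, and whether a difference in depth had a part in this was not tested, since the lists give no reads.

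To follow the same site over libraries, overlapping peaks were merged. The receptors had 42 of 21168 merged regions. Of these, 20 held a peak in 1 library (47.6%, against 56.2% of all regions). Another 16 were called in 2 libraries, 3 in 3 and 3 in all 4. The regions in all 4 libraries were 7.14% of the receptors' regions, against 10.7% of all regions, and those in at least 3 were 6 of 42, against 22.8% of all regions. A receptor counts as called where any of its regions is, so it cannot be called in fewer libraries than a given site of it. Of all genes with a peak, 49.9% reached at least 3 libraries, again more than the 22.8% of all regions.

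Of the regions called in 2 libraries, 4 were called in both starved libraries, 4 in both control libraries and 8 in a control and a starved library. Among all such regions with peaks in 2 libraries, 15.3% were the starved pair and 19.8% the control pair. Counted over all regions instead, the starved pair made up 9.52% of the receptors' regions, against 3.2% of all regions, and the control pair made up 9.52%, against 4.15%. With peaks under a false discovery rate of 20% only, 1 starved pair (Lrp5 exon 10) and 0 control pairs remained.

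Fzd3 had the strongest m6A peaks of the receptors. Its product is a Frizzled known for axon guidance and planar polarity. The peak lay in exon 2, which holds the start codon, at chr14:65252944-65253333 on the minus strand. Its fold enrichment was 534 and 617 in control cells and 271 and 370 after starvation, all 4 at the score limit. Both starved values were below both control values, as in 18% of the regions called in all 4 libraries. On the log2 scale the means were 9.16 ± 0.15 and 8.31 ± 0.32 (SD, n = 2 each), a difference of -0.86, or 1.81-fold lower in starved cells. The two-sided exact permutation p was 0.33, the smallest that 2 libraries against 2 allow, so no comparison of groups here could pass a conventional threshold. In each library the peak ended at the 3′ edge of the exon and spanned 338 to 390 bp, with up to 201 nt of it before the start codon.

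The other Fzd3 peaks were called in 1 library each. A peak in exon 4 was called in control replicate 2 at 18.3-fold. A 3′UTR peak centred 5505 nt downstream of the stop codon was called in starved replicate 2 at 355-fold. Parts of this 3′UTR region, up to 115 bp long, had 18 other matches in the genome at 90% identity or more, so the peak is uncertain. Fzd6, which also acts in planar polarity and in hair and nail patterning, has the same exon layout, with an exon 4 of 1018 nt in both genes. Its exon 2 carried a peak in control replicate 1 at 17.1-fold. Exon 4 of Fzd6 carried peaks in starved replicate 1 (12.6-fold) and starved replicate 2 (12.8-fold) that did not overlap each other, and exon 6 a peak in starved replicate 2 (9.29-fold). Each of these 4 Fzd6 regions was thus called in 1 library, whereas the matching exon 2 of Fzd3 was called in all 4.

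Fzd1, a Frizzled that signals through β-catenin, had the most peaks of the Frizzleds, namely 4 and 2 in control cells and 3 and 2 after starvation. A broad peak over its stop codon was called in all 4 libraries. Its fold enrichment was 4.12 and 11.9 in control cells and 18.8 and 41.6 after starvation, so that both starved values lay above both control values. On the log2 scale this was 2.81 ± 1.08 against 4.81 ± 0.81 (SD, n = 2 each), a difference of 2.00 or 4-fold (two-sided exact permutation p 0.33). The peak of control replicate 1 had a deposited false discovery rate of 60.7%, and without that library the difference was 1.24. With peaks under a rate of 20%, or with the 8974 best-scoring peaks of each list, Fzd1 was no longer called there in all 4 libraries. Of all regions called in all 4 libraries, 22.9% had both starved values above both control values. Merging joined the stop codon peaks to further coding peaks of control replicate 2 (18.6-fold) and starved replicate 2 (13.4-fold), in the region chr5:4754644-4756827. With the highest value per library in this region, control replicate 2 came to 18.6 and the difference to 1.68 (exact p 0.33), with 18.6 and 18.8 side by side.

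The other Fzd1 peaks were called in replicate 1 of both groups. At the 3′ end of the mRNA they were 20.6-fold in control and 4.77-fold in starved cells. Across the 5′UTR and the start of the CDS they were 9.43-fold and 5.44-fold in control and 19.5-fold in starved cells. The latter region had 1 other match in the genome, 306 bp at 91.2% identity, and is uncertain. All other receptor regions outside this one and the Fzd3 3′UTR had 0 such matches.

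Fzd2 and Fzd7 are close relatives of Fzd1. Fzd2 had 2 peaks in control replicate 2, in the CDS (5.86-fold) and over the stop codon (3.29-fold). In starved replicate 2 a single peak of 2308 bp (11.7-fold) covered most of the CDS and the stop codon. Fzd7, a Frizzled used by many stem and progenitor cells, had a peak over its stop codon in control replicate 2 (5.79-fold) and starved replicate 1 (9.39-fold). Its 5′ region was called in the same libraries, at 17.1-fold and 24.3-fold. The latter peak was centred upstream of the annotated start of Fzd7 in GENCODE and inside a RefSeq transcript. A CDS region of Fzd7, chr1:59482936-59483587, was called in both starved libraries (5.27-fold and 8.75-fold) and neither control library. Its peak of starved replicate 1 had a deposited false discovery rate of 48.3%. A 3′UTR peak of Fzd7 was called in control replicate 2 (4.71-fold).

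Fzd5 and Fzd8 form another pair with an intact CDS exon. Fzd5, needed for early placental and eye development, had a CDS region, chr1:64734848-64736484, with peaks in 3 libraries. They were 5.5-fold in control replicate 1, 8.97-fold and 8.75-fold in control replicate 2 and 73.0-fold in starved replicate 2, with none in starved replicate 1. Both control libraries had a peak that ended near the end of the CDS, whereas the starved peak lay further upstream and overlapped only the peaks of control replicate 2. The Fzd5 3′UTR was called in both control libraries (5.61-fold and 16.5-fold) and neither starved library. Its peak of control replicate 1 had a deposited false discovery rate of 55.6%. In Fzd8 a CDS region, chr18:9214238-9214697, was called in both starved libraries (26.2-fold and 9.57-fold) and neither control library. Its peak of starved replicate 2 had a rate of 34%. Whether this region matches a site of Fzd5 was not examined. The other 3 regions of Fzd8 were called in 1 library each, at 4.48-fold to 13.6-fold. Fzd4, the receptor of norrin in retinal vessels, had a peak over its stop codon in control replicate 1 (19.5-fold) and a CDS peak in starved replicate 1 (23.9-fold), which overlapped and form 1 region.

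**Figure D2:**
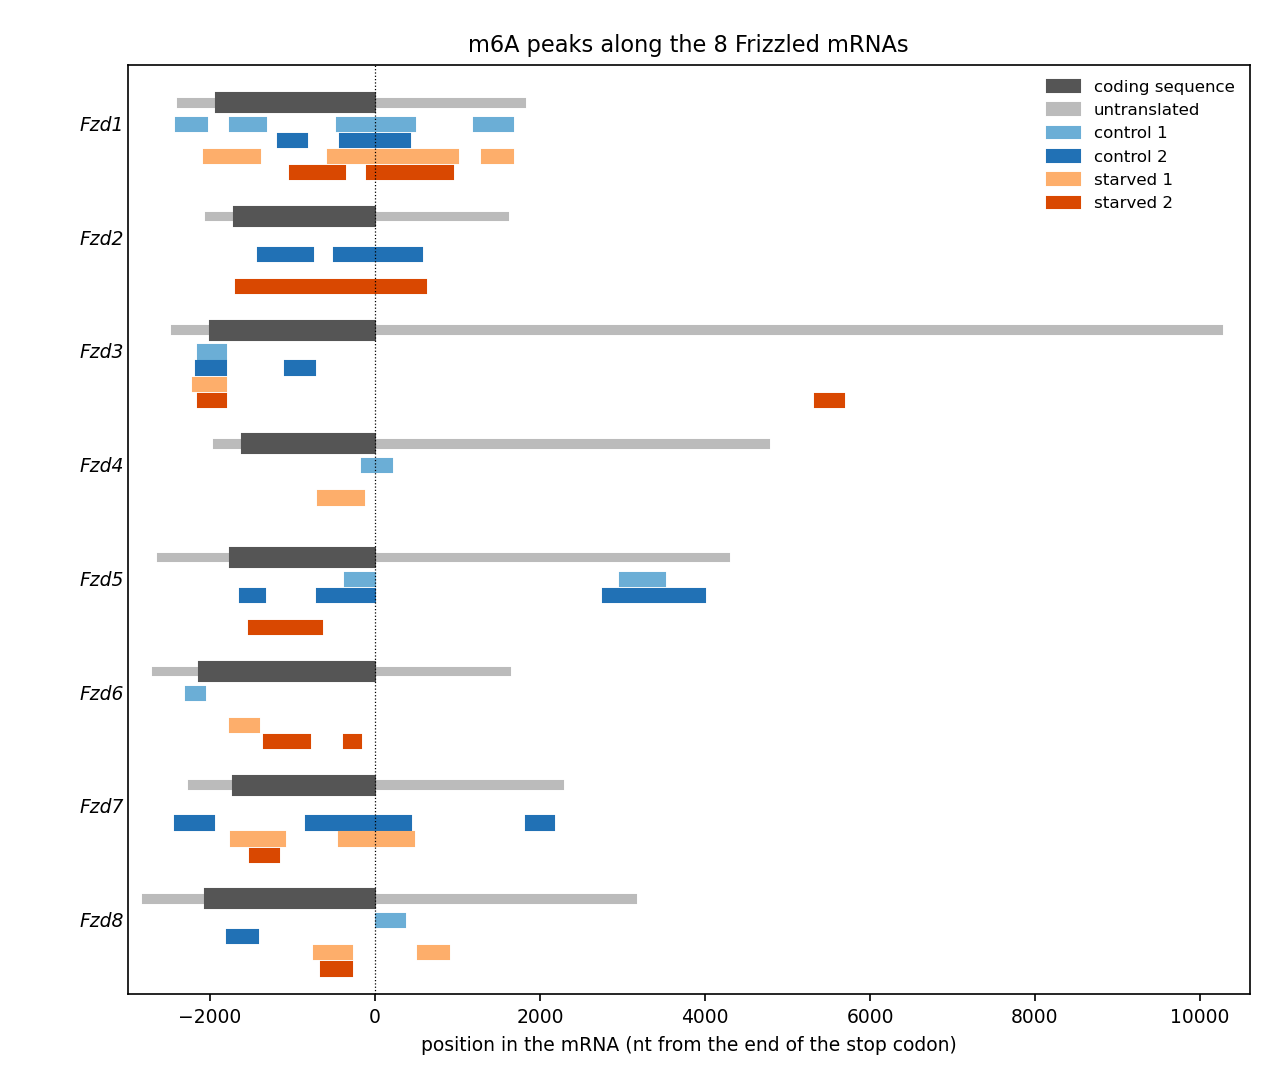
Peaks of the 4 libraries drawn to scale along the 8 Frizzled mRNAs, with the position in nt from the end of the stop codon. Dark bars are the CDS, light bars the untranslated parts, and the coloured bars below each mRNA are the peaks of a library. A Fzd7 peak of starved replicate 1 that is centred upstream of the annotated start is not drawn. Fzd1 has a peak over the stop codon in all 4 libraries, and Fzd3 has its 4 shared peaks around the start codon.

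LRP5 and LRP6 share the work of co-receptor, LRP5 being best known for bone mass and LRP6 for embryonic patterning. Each mRNA had 17 peaks, for Lrp5 3 and 4 in control cells and 6 and 4 after starvation, for Lrp6 4 and 5 in control cells and 4 and 4 after starvation. All 16 peaks of the control libraries and 14 of the 18 peaks of the starved libraries were centred in the CDS. The remaining 4 were all in starved libraries, in exon 23. They were a Lrp5 peak over the stop codon (17.7-fold, replicate 1) and Lrp6 peaks in the 3′UTR at 6.23-fold (replicate 1), 3.16-fold and 2.32-fold (both replicate 2). The latter pair did not overlap the peak of replicate 1.

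Peaks were found in 11 of the 23 exons of Lrp5 and in 7 of the 23 exons of Lrp6. The 7 exons of Lrp6, which were 2, 6, 8, 10, 12, 13 and 23, all had a peak in Lrp5 too. They were 63.6% of the exons with a peak in Lrp5 and 100% of those in Lrp6. Exons 9, 14, 16 and 18 had a peak in Lrp5 but not in Lrp6. Of the 17 combinations of exon and library with a peak in Lrp5 and the 16 in Lrp6, 8 were common to both genes.

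Exon 8 was the most shared site of Lrp6 and differed between the paralogs. In Lrp6 it had a peak in all 4 libraries that filled the exon, with fold enrichments of 11.2 and 132 in control cells and 86.5 and 54.7 after starvation. Control replicates thus lay on either side of both starved values, at 5.27 ± 2.52 against 6.10 ± 0.47 on the log2 scale (SD, n = 2 each). The difference of 0.84 was smaller than the SD of the control replicates (two-sided exact permutation p 1), and without control replicate 1 it was -0.94. In Lrp5 exon 8 was called in both control libraries (7.24-fold and 9.71-fold) and neither starved library.

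Exon 10 was called in opposite groups in the paralogs. In Lrp5 it was called in both starved libraries (16.9-fold and 51.8-fold) and neither control library. In Lrp6 it was called in both control libraries (7.01-fold and 5.56-fold) and neither starved library. Exon 12 was called in control replicate 2 and starved replicate 1 in both genes, at 9.21-fold and 7.74-fold in Lrp5 and at 10.8-fold and 9.19-fold in Lrp6. Both Lrp6 peaks of exon 10 were weak, with a deposited false discovery rate of 34.8% and 44.0%, against 16.2% and 7.52% for the Lrp5 peaks. Under a rate of 20% the Lrp5 side of the exon 10 contrast remained and the Lrp6 side was lost. In exon 8 the peaks of control replicate 1 were lost too, in Lrp5 (40.6%) and in Lrp6 (23.85%).

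Exon 6 of Lrp5, chr19:3630074-3630448, was called in 3 libraries, at 17.3-fold and 25.4-fold in control and 31.9-fold in starved replicate 1. Exon 6 of Lrp6 was called in both control libraries (4.67-fold and 24.9-fold) and neither starved library. The peak of control replicate 1 there had a deposited false discovery rate of 60.7%. Exon 2 of Lrp6, chr6:134541652-134542045, was called in control replicate 1 (14.8-fold) and both starved libraries (12.5-fold and 5.64-fold). The starved peaks had rates of 27.4% and 62.4%. Exon 2 of Lrp5 had a peak in starved replicate 1, the strongest Lrp5 peak at 92.5-fold. Lrp5 exon 14 was called in both starved libraries (11.7-fold and 87.9-fold) and neither control library, with a rate of 21.4% in starved replicate 1.

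**Figure D3:**
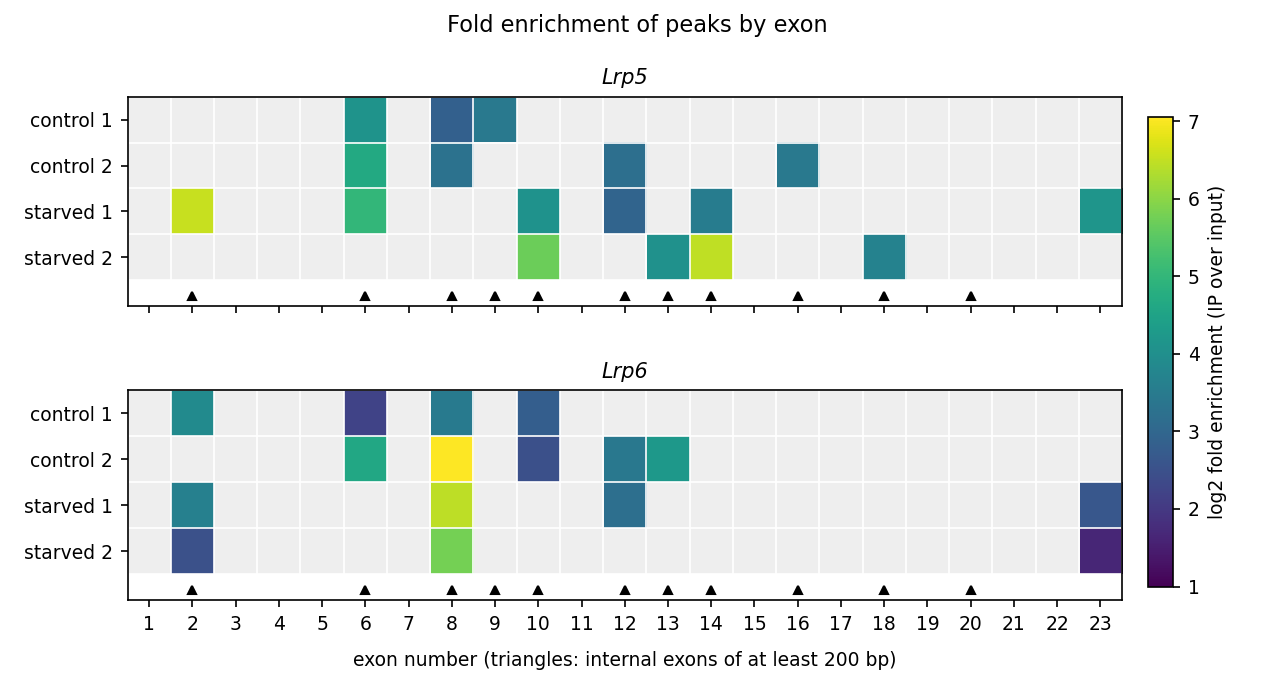
Fold enrichment (log2, IP over input) of the peaks in each of the 23 exons of Lrp5 and Lrp6 in the 4 libraries, as the highest value where an exon holds several, with no peak in grey and triangles under internal exons of at least 200 bp. Exon 8 is filled in all 4 libraries in Lrp6 and in both control libraries in Lrp5, and exon 10 is filled in the starved libraries in Lrp5 and in the control libraries in Lrp6.

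Whether an LRP5/6 exon had a peak went with its length. In Lrp5, 10 of the 11 internal exons of at least 200 bp had a peak, and in Lrp6 6 of 11, whereas none of the 10 shorter internal exons of either gene had 1. No peak in the deposited lists is narrower than 200 bp. Over all genes with a peak, 40.2% of internal exons of at least 200 bp held the centre of a peak, against 0.718% of shorter ones. Of all peaks placed in internal exons, 93.3% were in exons of at least 200 bp. Both edges of a peak fell on the edges of its exon in 17 of the 34 LRP5/6 peaks (50%, against 12% of all placed peaks), and at least 1 edge did in 28 of 34 (82.4%, against 47.8%). None of the placed peaks of the Frizzleds with 1 or 2 coding exons ended at an exon edge. Whether the caller's minimum width had a part in the absence of peaks from short exons was not tested.

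Set side by side by structure, the receptors differed in peak width and position. The 5 Frizzleds with the CDS in 1 exon had 32 peaks with a median width of 506 bp (311 to 2308 bp), and LRP5/6 had 34 peaks with a median width of 250.5 bp (200 to 397 bp). Peak centres lay in the CDS for 51.6% of placed peaks in the former, 70% in Fzd3 and Fzd6 and 88.2% in LRP5/6. Over all 10 receptors it was 70.1% (54 of 77 placed peaks), against 51.2% of all placed peaks. The 3′UTR held 24.7% of the receptors' peak centres, against 43.9%, and the 5′UTR 5.19%, against 4.85%. A peak covered the stop codon in 25.8% of cases in the 5 Frizzleds with the CDS in 1 exon, in 0 of 10 in Fzd3 and Fzd6 and in 2.94% in LRP5/6. Over the receptors this was 13.0%, against 26.7% of all placed peaks. Exons of at least 1000 bp held 51.9% of the receptors' peak centres, against 58.6%.

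The share of centres in the CDS was 58.8% and 77.3% in control cells and 65% and 77.8% after starvation, so that the groups overlapped. A stop codon peak was called in 5 receptors, namely Fzd1, Fzd2, Fzd4, Fzd7 and Lrp5. For comparison, among all genes with a CDS of at least 1500 nt in 1 exon, 174 had a peak, and 94.3% of these had a peak in the CDS. Among genes with such a CDS in several exons, 4545 had a peak and 74.9% of these had a peak in the CDS. Peak centres lay in the CDS for 73.2% of peaks of the former and 60.0% of the latter, the reverse of the order between the single-exon Frizzleds and LRP5/6. A stop codon peak was held by 50% and 50.2% of these genes and made up 21.1% and 19.8% of their peaks. The receptors' shares given above are of peaks, so only the latter values can be set beside them. The class with several coding exons takes in genes with few as well as many, so it is not matched to LRP5/6. What the contrast at the stop codon between the receptors comes from was not tested. The genes of this single-exon kind most like Fzd1 in peaks per library and median fold enrichment were Ranbp6, Zbed4, Dolk, Hps6 and Armcx4. They differed from it by 0 to 0.5 peaks per library on average (n = 4 libraries). Those most like Lrp5, which with Lrp6 had the most peaks, were Atxn1l, Nrip1, Irs1, Armcx4 and Fem1a, at 1.25 to 1.5 peaks.

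**Figure D4:**
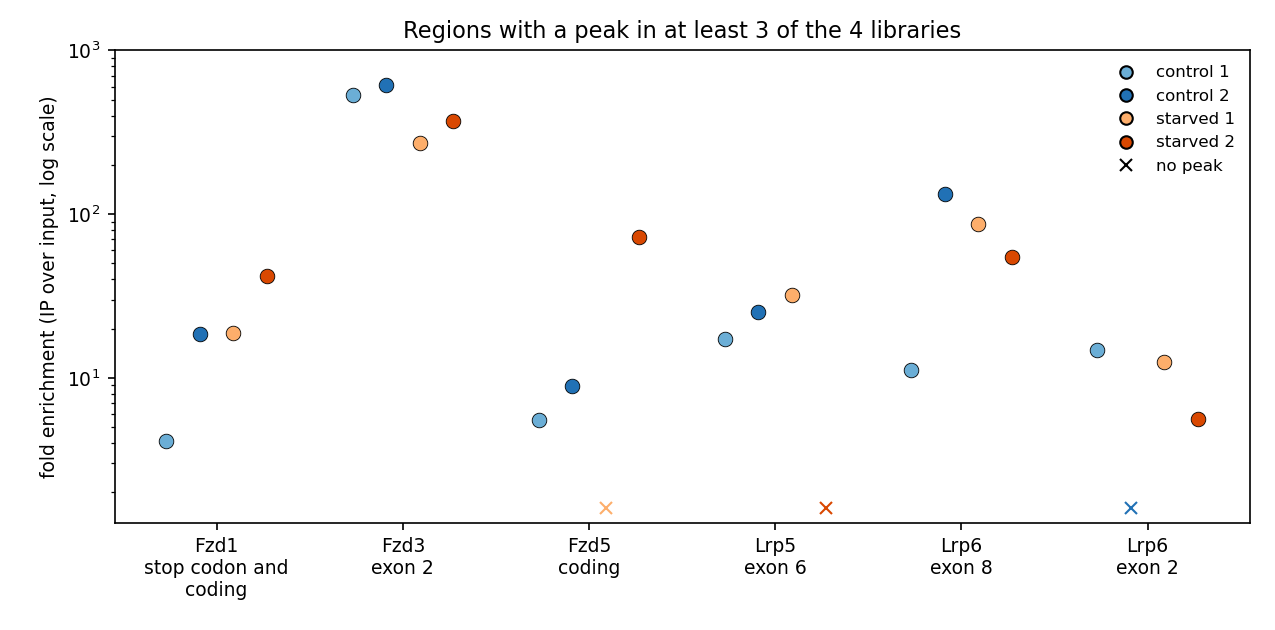
Fold enrichment (IP over input, log scale) in the 6 receptor regions with a peak in at least 3 libraries, 1 point per library at the highest value in the region, with a cross where a library had no peak. The control points of Fzd3 exon 2 lie above its starved points, the first 3 values of Lrp5 exon 6 lie from 17.3 to 31.9, and the control points of Lrp6 exon 8 lie on either side of its starved points.

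GGAC, searched on the transcribed strand, was found in the 200 bp of mRNA around the centre in 35 of the 42 receptor regions (83.3%, against 61.6% of all merged regions placed on a transcript). In 100 bp the share was 45.2%, against 39.2%, and DRACH in 200 bp was found in 97.6%, against 98%. Each of the 20 LRP5/6 regions held GGAC in 200 bp, and the regions without it were all among the 22 of the Frizzleds. The share in the Frizzleds was thus lower than the 83.3% of all receptor regions, which include them, but still above the 61.6% of all merged regions. The density of the motif differed between the receptor mRNAs. The CDS of Lrp5 had 12.4 GGAC per kb and that of Lrp6 7.85, against a median of 4.93 over genes with a peak (quartiles 3.47 and 6.54). The Frizzleds had from 2.50 in Fzd3 to 6.22 in Fzd1. The receptor with the most enriched peaks, Fzd3, thus had the lowest density, and its peak exon lacked the motif. A match is a description of the sequence and not a methylated site.

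The rest of the pathway was counted in lists of 100 further Wnt genes, of which 59 had a peak and 17 of these 59 (28.8%) had a peak in all 4 libraries, again beside 29.2% of all genes with a peak. Their peaks numbered 74 and 61 in control cells and 66 and 77 after starvation. Of these genes, 3 were called in both starved libraries alone and 2 in both control libraries alone, out of 59 with a peak, counts near the 3.18% and 4.56% of all genes with a peak. Among 19 Wnt ligands 6 had a peak, and Wnt5b (median 256-fold) and Wnt5a (11.97-fold) had it in all 4 libraries. Of the other Frizzled class, which is Smo, Fzd9 and Fzd10, only Smo, the Hedgehog transducer, had peaks (7.31-fold). Of 7 other Wnt receptors 6 had a peak and Ror2, a receptor of Wnt5a, had it in all 4 (11.1-fold). Of 10 other receptors of the family of LRP5/6, 8 had a peak and 3 had it in all 4 libraries, namely Lrp3 (45.0-fold), Lrp12 (24.8-fold) and Lrp1 (4.95-fold).

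Of the 17 extracellular inhibitors 7 had a peak, and Kremen1 (11.2-fold) and Dkk2 (8-fold), which act on LRP5/6, had it in all 4 libraries. The 6 R-spondins and genes of receptor turnover included 5 with a peak and 0 in all 4 libraries, and of 2 secretion genes 1 had a peak, in 1 library. Among 14 cytoplasmic transducers 10 had a peak and 4 had it in all 4 libraries, led by Apc (10.96-fold), Ctnnb1 (β-catenin, 10.0-fold) and Axin1 (6.40-fold). Of 13 nuclear effectors 9 had a peak and Bcl9l, a β-catenin cofactor, had it in all 4 (10.6-fold). Of 9 planar polarity partners 6 had a peak and 3 had it in all 4, namely Daam2 (21.7-fold), Daam1 (10.7-fold) and Vangl1 (9.90-fold). The median of Fzd3, 363-fold over its 6 peaks, was above that of each of these genes.

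The label of the cells was set against marker genes. Of 10 fibroblast markers 6 had a peak, among them Pdgfra and Pdgfrb in all 4 libraries, and Col1a1, Vim, Dcn and Lum had none. Of the markers of other cells, 3 of 5 epithelial, 2 of 4 endothelial, 1 of 5 immune and 4 of 5 neural genes had a peak. They were Krt8, Krt18 and Krt5 (epithelial), Kdr and Tek (endothelial), Cd68 (immune) and Sox10, Tubb3, Map2 and Nes (neural). Nes had a peak in all 4 libraries, and Kdr and Map2 in 3 each. Epcam, Cdh1, Pecam1, Cdh5, Ptprc, Adgre1, Itgam, Cd3e and Gfap had none. A peak shows that an mRNA was present but not its level, so the share of other cells could not be measured. In such bulk samples fewer cells with a transcript and less of it per cell cannot be told apart.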

How the data were processed

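MeRIP-seq of MEFs gave 4 IP libraries with a processed list each (2 control, 2 starved). The inputs were used by the authors as the background of their calls. Per the labels and the study's methods, strand-specific libraries were made from purified mRNA, and reads were trimmed with Cutadapt, aligned to mm10 with HISAT2 2.0.4 and called per library with MACS2 against the matching input. Peaks over mRNA exons were kept. The columns of the lists resemble an earlier MACS, so the caller's version is uncertain. The authors deposited the fold enrichment as a ratio of IP to local background, and no scaling between libraries was applied here. The deposited score is -10 times log10 of the peak's p-value, from 50.01 to 3100. The authors' false discovery rate is a percent. A further deposited table holds the authors' own comparison of the groups (fold change, p-values, direction) and was not used.

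Peaks were assigned by the gene name in the lists, with starts counted from 1, and joined where they overlapped by at least 1 bp. Each was placed by its centre on the transcript with the longest CDS (GENCODE M21), 6.69% of all peaks could not be placed, and RefSeq GRCm38.p6 models and sequences were the alternative. Regions were searched against the genome with blastn 2.17.0 (hits of at least 100 bp and 90% identity). A group test, exact and two-sided over the libraries, was run for single regions only. The tools were Biopython 1.88, samtools 1.23.1, pandas 2.3.3, numpy 2.4.6, scipy 1.17.1 and matplotlib 3.10.9 in Python 3.11.15, and the placement, merging and test were tested on simulated data. Alternatives were a stricter false discovery rate, an equal number of peaks per list, a minimum fold, other overlaps, models and motif windows, a replicate block and leaving out each library.

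The receptors, the pathway and marker lists and the tests were chosen with earlier results of these data known. All 10 receptors were named, with every region called in at least 3 libraries in full. Of each pathway list, up to 3 genes with a peak in all 4 libraries were named by median fold enrichment. Genes most like a receptor were single-exon genes in the same number of libraries, ordered by the difference in peaks per library and then in median log2 fold enrichment. The rule named Lrp5, and Fzd1 and the other regions and markers were added after their values were seen. An item of the pathway lists is not reported here, and proteins were not analysed here.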

Additional observations from a re-analysis of the deposited data

How the results depend on the processing

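Of 113 values under alternative settings, 97 were counted as the same, 12 as moved and 4 as turned. Log2 differences were judged by their direction alone, so a change in their size was not counted. With peaks under a 20% false discovery rate only, the starved libraries held 5 more receptor peaks on average, 1 region was called in all 4 libraries, 1 in both starved libraries alone and 0 in both control libraries alone. The median log2 difference over the regions called in all 4 libraries, 0.84 as reported, was then -0.86, from Fzd3 exon 2 alone. With the 8974 best-scoring peaks of each list, 2 regions were called in both control libraries alone and that median was -0.011. These settings leave fewer peaks. Exons of at least 500 bp held 57.1% of the receptors' peaks. GGAC was found in 45.2% of the receptors' regions in windows of 100 bp, against 39.2% of all regions, and DRACH in 97.6% in windows of 200 bp, against 98%. The gap to all regions seen for GGAC in 200 bp was thus smaller at 100 bp, and the DRACH share was slightly below that of all regions. A minimum fold of 4, a stricter overlap between joined peaks, RefSeq models and assignment by exon overlap, which gained and lost 0 peaks, moved no result beyond these limits.

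Leaving out each IP library in turn, the difference in receptor peaks ran from -2.5 to 2.5, receptors called in all remaining libraries from 5 to 6, and regions called in all of them from 3 to 4. Regions called in the starved libraries alone ran from 4 to 11 (11 without starved IP replicate 1 and 9 without starved IP replicate 2). Regions called in the control libraries alone ran from 5 to 9 (9 without control IP replicate 1 and 8 without control IP replicate 2). A lone library is easier to satisfy than a pair, so these counts rise by construction. The median log2 difference ran from -0.94 to 2.61. It turned to -0.94 without control IP replicate 1, as did the value of Lrp6 exon 8, which is that median. At Fzd1 the difference in the merged region ran from 0.59 to 2.76 and at Fzd3 exon 2 from -1.08 to -0.63, so both kept their direction without each library. The shares ran from 67.3% to 73.3% for the CDS, from 50.8% to 53.3% for long exons and from 73.7% to 86.8% for GGAC.

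The replicate numbers were not stated to mark a shared culture. Deviations of same-numbered libraries from their group means had r = -0.01 across 2257 regions, which are not independent replicates. These deviations were taken on the log2 of the log2 fold enrichment, so the value is not the correlation of log2 fold enrichment itself. With the replicate block the difference in receptor peaks was 0 and the median log2 difference 0.84, as without it, and the smallest p that exact sign flips allow is 0.5. With 2 libraries per group no test could pass a conventional threshold, and with depth unknown a missing peak cannot be told from a shallow library.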
